A study of Mus musculus with 15 samples.

Results

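Shelterin is the protein complex that coats the telomeric ends of chromosomes, and its 7 mouse genes are Terf1, Terf2, Terf2ip, Pot1a, Pot1b, Tinf2 and Acd. The members were taken by gene name from a table of 18073 genes measured in mouse aortic valve leaflets, and all 7 were found. RNA came from 15 C57BL/6 mice aged 2 months, with 3 leaflets taken from each mouse. The groups cross Notch1 genotype with telomere length. A group of 4 mice was wild type for both Notch1 and Terc, the RNA template of telomerase, and so had long telomeres. Another 4 mice were heterozygous for Notch1 with wild type Terc. The short-telomere groups were Terc null mice of generation 2, with 3 mice wild type and 4 heterozygous for Notch1. Long and short telomeres below name these Terc genotypes, since no telomere length is among the values used here. Loss of Terc and shorter telomeres cannot be told apart in this design. The series, by its title, is about how telomere length bears on the loss of 1 Notch1 copy. The labels describe neither the mutant Notch1 allele nor any sorting of cells, so the values are of whole leaflets after collagenase. In such bulk RNA, fewer cells of a type and less RNA per cell cannot be told apart.

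The table gives 1 FPKM value per gene and group. FPKM scales the fragments of a gene to the length of its transcript and to the size of the library, so levels of different genes can be set side by side per length. How the libraries of a group were combined into that value is not given in the sources used here. With 1 value per group the spread between mice is unknown, and so is the read depth. No value below carries an error, and no difference between groups was tested. The words higher and lower below compare such group values and nothing more.

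Shelterin hides chromosome ends from the DNA damage response and controls the access of telomerase. Terf1 and Terf2 encode TRF1 and TRF2, which bind the TTAGGG repeats of duplex telomeric DNA. TRF1 aids replication through the repeats, and TRF2 blocks ATM signalling and end joining. Terf2ip encodes RAP1, which binds TRF2. Tinf2 encodes TIN2, the hub that joins TRF1, TRF2 and TPP1. Acd encodes TPP1, which tethers POT1 to TIN2 and brings telomerase to the end. Pot1a and Pot1b encode the proteins that bind the single-stranded overhang. Mice carry both through a gene duplication, with POT1a mainly blocking ATR and POT1b limiting resection of the overhang's partner strand.

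The promoters of 4 members are shown so that paralogs and linkers can be compared: Pot1a and Pot1b, whose levels parted in one group, and Tinf2 and Acd, whose products are neighbours in the complex. The sequences are from RefSeq on build GRCm38.p6 and run from 250 bases before to 50 after the annotated start, a build other than the mm9 named in the submitters' processing notes. Of the 7 members 6 had an entry and Terf1 had none. Capitals mark matches, on either strand, to the GC box GGGCGG, the CCAAT box CCAAT, the E box CACGTG, the ETS word CCGGAAGT, the cyclic AMP response element TGACGTCA, the telomere repeat TTAGGG, and the E2F words TTTCCCGC and TTTGGCGC and TTTCGCGC and TTTGCCGC. The response element was added after the sequences had been read.
Pot1a, chr6:25809169-25809468, minus strand: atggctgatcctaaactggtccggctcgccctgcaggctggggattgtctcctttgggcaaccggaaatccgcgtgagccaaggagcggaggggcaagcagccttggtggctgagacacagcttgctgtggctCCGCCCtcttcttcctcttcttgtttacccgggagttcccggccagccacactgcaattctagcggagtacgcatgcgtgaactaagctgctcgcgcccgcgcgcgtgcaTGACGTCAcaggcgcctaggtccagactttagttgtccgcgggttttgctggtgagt
Pot1b, chr17:55712587-55712886, minus strand: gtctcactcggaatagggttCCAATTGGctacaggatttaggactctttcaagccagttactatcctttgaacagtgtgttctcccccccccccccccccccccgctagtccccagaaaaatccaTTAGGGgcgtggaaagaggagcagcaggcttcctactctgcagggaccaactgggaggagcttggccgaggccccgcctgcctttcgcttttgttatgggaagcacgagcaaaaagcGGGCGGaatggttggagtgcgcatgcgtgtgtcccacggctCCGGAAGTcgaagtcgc
Tinf2, chr14:55681768-55682067, minus strand: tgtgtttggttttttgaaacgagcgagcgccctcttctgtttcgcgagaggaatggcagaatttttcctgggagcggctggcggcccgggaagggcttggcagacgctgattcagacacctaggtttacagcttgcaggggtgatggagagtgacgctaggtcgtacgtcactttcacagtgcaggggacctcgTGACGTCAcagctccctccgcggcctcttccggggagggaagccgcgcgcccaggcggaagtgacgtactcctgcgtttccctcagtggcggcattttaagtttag
Acd, chr8:105701179-105701478, minus strand: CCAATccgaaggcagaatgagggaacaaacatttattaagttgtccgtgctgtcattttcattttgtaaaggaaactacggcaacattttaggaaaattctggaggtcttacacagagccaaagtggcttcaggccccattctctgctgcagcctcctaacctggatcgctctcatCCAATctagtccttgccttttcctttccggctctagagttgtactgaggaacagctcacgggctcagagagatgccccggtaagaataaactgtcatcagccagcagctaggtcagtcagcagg

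The POT1 paralogs differ in what these windows hold. The Pot1a window has 1 GC box and 1 cyclic AMP response element, which begins 7 bases before the start. The Pot1b window has 1 GC box, 1 ETS word, 1 TTAGGG word and a CCAATTGG stretch that reads as a CCAAT box on both strands. The Tinf2 window holds 1 cyclic AMP response element and the Acd window 2 CCAAT boxes. Over 32544 promoters of the same length, 35.9% hold a GC box, 37.4% a CCAAT box, 7.17% an E box, 3.92% the ETS word, 2.28% an E2F word, 10.6% a TTAGGG word and 1.80% the response element. Acd has 7 CpG dinucleotides in its window, the same as the median of all promoters, and Pot1a, Pot1b and Tinf2 have 22, 15 and 24. The matches describe these letters only.

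The groups differed in ways that touch every gene. Terc, under the name Telomerase-vert, stood at 1.42 FPKM (Notch1 wild type) and 4.52 FPKM (heterozygous) among long-telomere mice, and both Terc null groups listed it at 0. Notch1 stood at 39.1 and 25.1 FPKM with long telomeres, and at 16.6 and 23.3 FPKM in the wild type and heterozygous groups with short ones, so its level did not follow the genotype labels there. Markers of valve interstitial cells (summed FPKM of 8 genes, from 4289 to 7051) and valve endothelium (7 genes, from 243 to 406) were present in every group, with 0 genes listed at 0. Markers of T cells, thymocytes and blood cells were also present, and uneven. The summed FPKM of 10 T cell and thymocyte genes was 141, 1308, 196 and 20.0. The order is wild type long, heterozygous long, wild type short, heterozygous short, and it is kept below. A list of 12 cell cycle genes summed to 80.1, 315, 180 and 91.1 FPKM, and 8 neutrophil genes to 11.9, 39.3, 1772 and 161 FPKM. Without Ccnb2, which alone stood at 90.04 FPKM in wild type valves with short telomeres, the cell cycle sums were 78.0, 286, 89.7 and 82.6 FPKM. Platelet genes (8) summed to 3159, 122, 2020 and 401 FPKM, lower in heterozygous valves at either telomere length. Erythroid genes (5) summed to 11720, 4950, 21568 and 11050 FPKM and smooth muscle genes (5) to 1065, 181, 544 and 379 FPKM. Mitochondrially encoded genes took 14.4%, 10.01%, 32.5% and 35.0% of all FPKM. Log2 folds below are differences of log2(FPKM + 1), given relative to the median of the 15044 genes with a mean of at least 1 FPKM. As deposited, that median was 0.10 between the Notch1 genotypes when telomeres were long and 0.07 when they were short. Between telomere lengths it was -0.24 in Notch1 wild type mice and -0.25 in heterozygotes, and between mice with both changes and mice with neither it was -0.17.

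Of the DNA-binding subunits, Terf1 (ENSMUSG00000025925) varied more between the groups than Terf2. Terf1 stood at 5.58, 17.7, 14.6 and 8.36 FPKM. It was high where a single change was present, heterozygous Notch1 or short telomeres, and low where neither or both were. Terf2 (ENSMUSG00000031921) stood at 12.4, 17.0, 10.7 and 7.90 FPKM. Its highest value was also in heterozygous valves with long telomeres, but its lowest was in heterozygous valves with short ones. The level of Terf1 over that of Terf2 was 0.449 in wild type valves with long telomeres and lay between 1.04 and 1.36 in the other groups. Terf2ip (ENSMUSG00000033430), whose product binds TRF2, stood at 10.4, 11.6, 9.61 and 3.88 FPKM. Its first 3 values were close together and the last was lower. The level of Terf2 over Terf2ip lay between 1.11 and 1.47 in those 3 groups and was 2.03 in heterozygous valves with short telomeres.

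**Figure D1:**
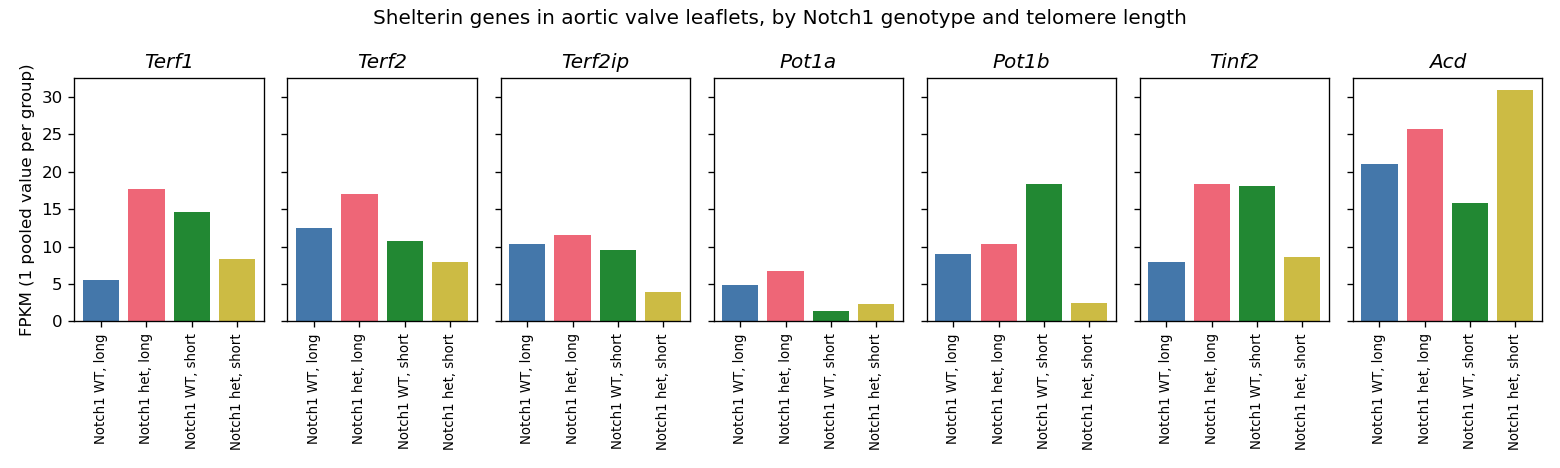
Bars give the FPKM of each shelterin gene (vertical axis, pooled over the mice of a group) in the 4 groups, named by Notch1 genotype (WT, wild type; het, heterozygous) and telomere length. Terf1 and Tinf2 are high in the 2 middle groups, Pot1b peaks at 18.4 FPKM in wild type valves with short telomeres, and Acd reaches 30.9 FPKM in heterozygous valves with short telomeres.

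Of the linkers, Acd was above Tinf2 in 3 groups and below it in wild type valves with short telomeres. Tinf2 (ENSMUSG00000007589) stood at 7.90, 18.4, 18.2 and 8.62 FPKM, high in the same groups as Terf1. Acd (ENSMUSG00000038000) stood at 21.1, 25.7, 15.9 and 30.9 FPKM. It was the most abundant member in 3 of the 4 groups, and its peak came in the group where Terf2, Terf2ip and Pot1b had their lowest values. The level of Acd over Tinf2 was 2.67, 1.39, 0.874 and 3.59.

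The overhang-binding paralogs lay farthest apart in Notch1 wild type valves with short telomeres, and closest in heterozygous valves with short telomeres. Pot1a (ENSMUSG00000029676) stood at 4.81, 6.70, 1.46 and 2.34 FPKM and was the least abundant member in each of the 4 groups. Both of its short-telomere values lay below both of its long-telomere values. Pot1b (ENSMUSG00000024174) stood at 8.98, 10.3, 18.4 and 2.47 FPKM. It was the most abundant member in wild type valves with short telomeres and the next to lowest in heterozygous valves with short telomeres. The level of Pot1b over Pot1a was 1.87 and 1.54 with long telomeres. With short telomeres it was 12.6 in wild type and 1.05 in heterozygous valves. The summed level of the paralogs was 13.8, 17.0, 19.8 and 4.81 FPKM, and Acd, whose product tethers them, stood at 1.53, 1.51, 0.801 and 6.43 times that sum.

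Reads can be shared between genes, since the library kit keeps no strand. In GENCODE transcripts of build GRCm38, 25.7% of the 50-base words of Tinf2 also occur, on the opposite strand, in transcripts of the overlapping gene Gmpr2, a guanosine monophosphate reductase. Gmpr2 stood at 25.9, 34.2, 48.0 and 17.1 FPKM, above Tinf2 in each group. Like Tinf2, it was higher in heterozygous long and wild type short valves than in the other groups. Acd shares 23.1% of its words, again on the opposite strand, with Carmil2, a cytoskeletal regulator known from T cells. Carmil2 (named Rltpr in the table) stood at 2.23, 15.8, 0.265 and 0.0488 FPKM, below Acd in each group and lowest where Acd was highest. Terf2 shared 0 words with other genes, and the shares of Terf1, Terf2ip, Pot1a and Pot1b were 2.97%, 1.96%, 0.186% and 1.36%. Terf1 and Tinf2 had 27 such words in common, on opposite strands, and Pot1a and Pot1b had 0. How overlapping reads were counted is not given in the sources used here, and their part in the Tinf2 and Acd values was not tested.

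**Figure D2:**
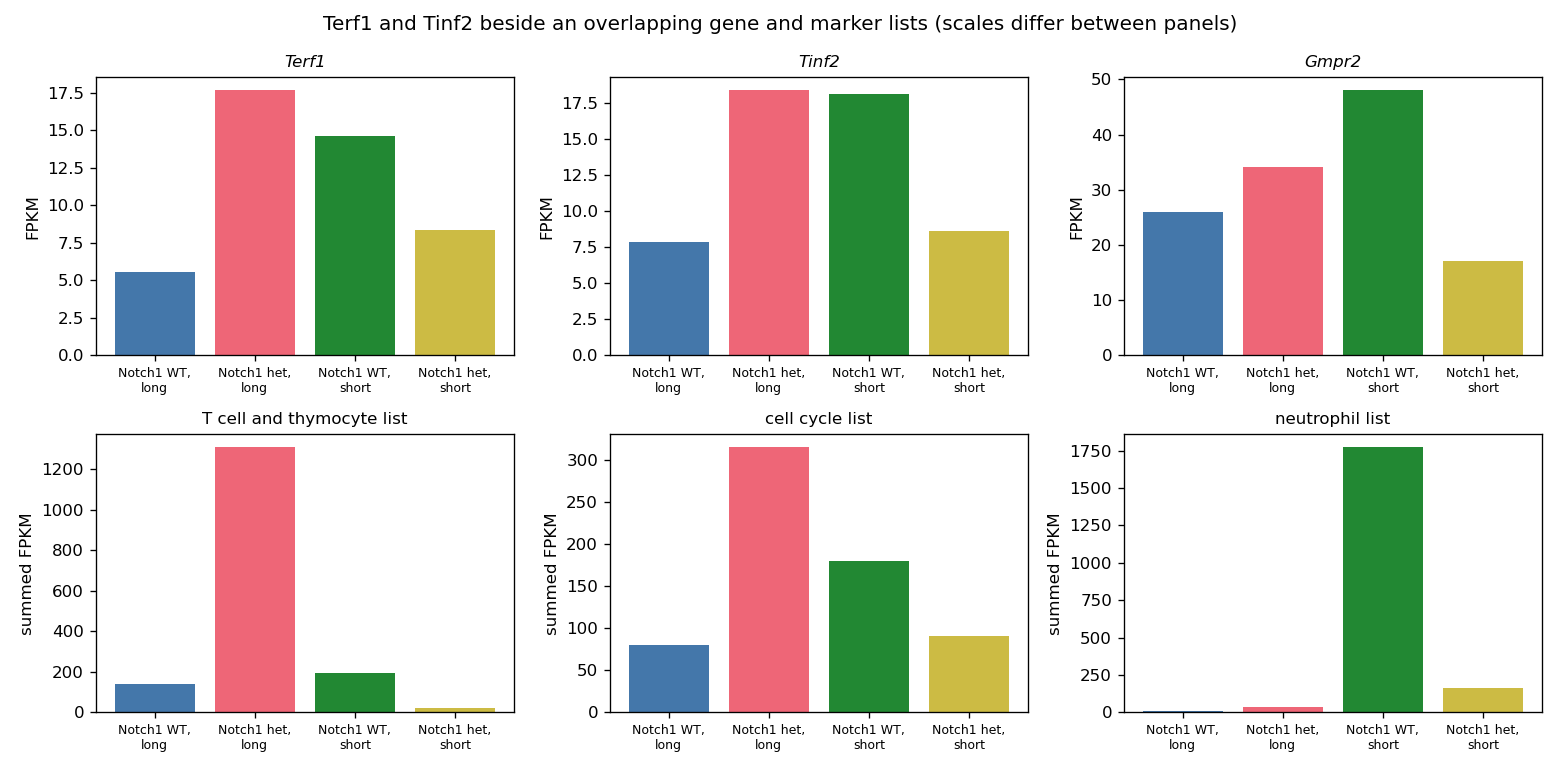
Bars give FPKM of Terf1, Tinf2 and the overlapping gene Gmpr2, and the summed FPKM of the T cell and thymocyte, cell cycle and neutrophil lists, in the 4 groups (each panel has its own vertical scale from 0). Terf1, Tinf2, Gmpr2, the T cell and thymocyte list and the cell cycle list are all higher in the 2 middle groups than in the outer ones. The neutrophil list is not. In wild type valves with short telomeres the cell cycle list is higher mainly through Ccnb2 (90.04 FPKM of 180).

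With long telomeres, loss of 1 Notch1 copy went with higher Terf1 and Tinf2 and with little difference in the other members. All 7 were above the median gene, and their median log2 fold was 0.30. Terf1 was 3.16-fold higher in heterozygous valves, a log2 fold of 1.40 that lay above 94.2% of genes. Tinf2 was 2.33-fold higher, a log2 fold of 1.02 above 90.5% of genes. These 2 members were past 2-fold higher, as were 9.81% of all genes, and 0 were past 2-fold lower, against 9.47%. The folds of Terf2 (0.32), Pot1a (0.30), Acd (0.17), Pot1b (0.08) and Terf2ip (0.04) were smaller. The authors' deposited table called 0 of the 7 and 0.415% of all genes, by the column assigned to this comparison from the FPKM of its called genes. The T cell and thymocyte list was past 2-fold higher in 10 of 10 genes here and the cell cycle list in 10 of 12. All 8 platelet, 5 smooth muscle and 5 erythroid genes were past 2-fold lower. The part of these lists in the Terf1 and Tinf2 values was not tested.

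With short telomeres the order was turned for most members. Of the 7 members, 5 were lower in heterozygous than in wild type valves and 2 were higher, with a median log2 fold of -0.80. Pot1b had the widest gap of any member in any comparison, from 18.4 FPKM without to 2.47 FPKM with the Notch1 mutation, a 7.44-fold difference. Its log2 fold of -2.55 lay well below the 10th percentile of all genes, -1.21. Terf2ip (-1.19) and Tinf2 (-1.06) were also past 2-fold lower on this scale, and Terf1 (-0.80) and Terf2 (-0.46) were not. Thus 3 of 7 were past 2-fold lower beside 12.9% of all genes, and 0 were past 2-fold higher beside 12.5%. Acd (0.85) and Pot1a (0.38) were the higher members. Pot1a rests on low values, 1.46 and 2.34 FPKM. The authors' deposited table called 0 of the 7, Pot1b included, and 0.476% of all genes, although the smallest ratio among the genes it called here was 4.30. In this comparison 7 of 10 T cell and thymocyte genes and 7 of 8 neutrophil genes were past 2-fold lower, as were 8 of 8 platelet and 4 of 5 erythroid genes. Of 8 macrophage genes 5 were past 2-fold higher. The part of these cells in the shelterin values was not tested.

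Short telomeres in Notch1 wild type valves went with higher Terf1, Tinf2 and Pot1b and lower Pot1a. Terf1 was 2.62-fold higher than with long telomeres, Tinf2 2.30-fold and Pot1b 2.04-fold. Their log2 folds of 1.48, 1.34 and 1.19 lay above 93.1%, 91.6% and 89.4% of genes. Pot1a was 3.30-fold lower, with a log2 fold of -1.004 above 16.3% of genes. The paralogs thus moved apart. Past 2-fold there were 3 members higher and 1 lower, beside 14.1% and 16.4% of all genes. Acd stood at -0.15. Terf2 (0.04) and Terf2ip (0.14) were above the median gene and below 0 as deposited, at -0.20 and -0.10, so 5 of 7 members were higher by the first scale and 3 of 7 by the other. The authors' deposited table called 0 of the 7 and 0.686% of all genes. All 8 neutrophil genes were past 2-fold higher in the same comparison. The cell cycle list had 2 of 12 genes past 2-fold higher and 3 lower, the erythroid list 4 of 5 higher and the mitochondrial list 12 of 24 higher. The part of other cells was not tested. Scaled to the same sum without blood and cell cycle genes, Terf1, Tinf2 and Pot1b stood at 0.86, 0.71 and 0.56, all under 2-fold. That scale is not centred on the median gene. Its sum keeps the mitochondrial genes, which took 14.4% of FPKM with long and 32.5% with short telomeres. It multiplies all genes of a group by the same factor, so it says nothing on the part of blood cells.

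Every member but Acd was lower with short telomeres when Notch1 was heterozygous. Pot1b was 4.19-fold lower and Terf2ip 2.98-fold lower, with log2 folds of -1.46 and -1.12 above 7.006% and 10.9% of genes. Pot1a (-0.96), Terf2 (-0.77), Tinf2 (-0.77) and Terf1 (-0.75) lay close together. Acd stood at 0.51, and at -0.22 when FPKM were scaled to the same sum without blood and cell cycle genes. The median of the members was -0.77. Past 2-fold lower were 2 of 7, beside 12.7% of all genes, and 0 were past 2-fold higher, beside 8.43%. This count depends on the scale: 5 of 7 were past 2-fold lower as deposited (median -1.01), and 6 of 7 at the same sum without blood and cell cycle genes (median -1.47). Neither scale is centred on the median gene, which stood at -0.25 as deposited, and the sum keeps the mitochondrial genes. The share of all genes past 2-fold was not computed on these scales, so both counts also hold any shift of all genes. The authors' deposited table called 0 of the 7 and 0.432% of all genes. The long-telomere reference of this comparison is the group with the highest T cell and cell cycle sums. Of those lists 10 of 10 and 9 of 12 genes were past 2-fold lower here. Past 2-fold higher were 6 of 8 platelet, 5 of 5 erythroid, 5 of 8 neutrophil and 24 of 24 mitochondrial genes. So were 4 of 8 macrophage, 3 of 5 smooth muscle, 3 of 7 valve endothelial and 0 of 8 valve interstitial genes. The part of these lists in the shelterin values was not tested.

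Valves with both changes were next set against valves with neither. Pot1b was 3.64-fold lower and Terf2ip 2.67-fold lower, with log2 folds of -1.36 and -1.05. Acd (0.70), Terf1 (0.68) and Tinf2 (0.28) were higher, and Terf2 (-0.43) and Pot1a (-0.63) were lower. At the same sum without blood and cell cycle genes, Acd and Terf1 came to 0.06 and 0.08, Tinf2 turned to -0.32, and Terf2 and Pot1a were past 2-fold lower at -1.04 and -1.17. That scale is not centred on the median gene, and its sum keeps the mitochondrial genes. Relative to the median gene 3 of 7 members were higher and 4 lower. Of these, 0 were past 2-fold higher, beside 11.2% of all genes, and 2 past 2-fold lower, beside 14.3%. The authors' deposited table called 0 of the 7 and 0.526% of all genes. T cell and thymocyte genes were past 2-fold lower in 9 of 10 cases and platelet genes in 8 of 8. Neutrophil genes were past 2-fold higher in 6 of 8, macrophage genes in 5 of 8 and mitochondrial genes in 23 of 24. Smooth muscle genes were past 2-fold lower in 3 of 5. Of 7 valve endothelial genes 2 were past 2-fold higher and 1 lower. The cell cycle list had 2 of 12 past 2-fold higher and 1 lower. Their part in the shelterin values was not tested.

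Valves with short telomeres alone and with Notch1 loss alone had similar levels of Terf1 (14.6 and 17.7 FPKM), Tinf2 (18.2 and 18.4 FPKM) and Terf2ip (9.61 and 11.6 FPKM). Their log2 folds of 0.09, 0.33 and 0.11 all turned below 0 as deposited, to -0.26, -0.02 and -0.24. The POT1 paralogs parted here as well, Pot1a at -1.30 and Pot1b at 1.12. Each was the 1 member past 2-fold in its direction, beside 14.2% of all genes higher and 16.0% lower. Pot1b was within 2-fold as deposited, at 0.77. The table holds no calls for this pair of groups. All 8 platelet, 8 neutrophil, 5 erythroid and 5 smooth muscle genes were past 2-fold higher with short telomeres alone, as were 22 of 24 mitochondrial genes. So were 4 of 7 valve endothelial and 3 of 8 valve interstitial genes, with 0 of either list past 2-fold lower. T cell and thymocyte genes were past 2-fold lower in 10 of 10 cases. The cell cycle list had 9 of 12 genes past 2-fold lower and 1 higher. The part of these lists was not tested. The comparisons share groups with each other, so they are not separate observations.

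**Figure D3:**
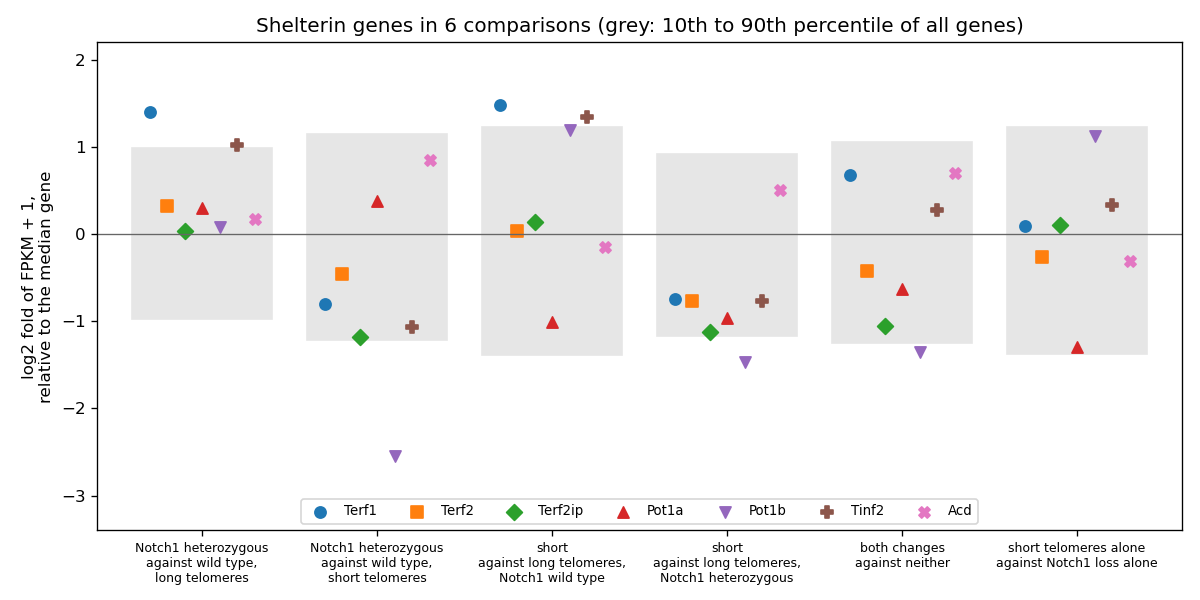
Points give the log2 fold of each shelterin gene, relative to the median gene, in the 6 comparisons along the horizontal axis, and grey boxes span the 10th to 90th percentile of the 15044 genes. Most points lie inside the boxes, and Pot1b in heterozygous against wild type valves with short telomeres lies farthest outside, at -2.55.

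The effect of the Notch1 genotype with short telomeres minus that with long telomeres was negative for 5 of 7 members and past -1 for 4. These were Pot1b (-2.63), Terf1 (-2.21), Tinf2 (-2.08) and Terf2ip (-1.23). Among all genes 17.7% were past -1, and the median was 0.04. The differences of Pot1b, Terf1 and Tinf2 lay above only 4.01%, 5.73% and 6.25% of genes. Terf2 stood at -0.78, Pot1a at 0.07 and Acd at 0.68. With 1 value per group this departure from additive effects has no error and was not tested.

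The make-up of the shelterin transcripts within a group does not depend on how groups are scaled. The members summed to 71.2, 107, 88.8 and 64.5 FPKM. Acd took 29.6%, 23.9%, 17.9% and 48.0% of that sum, its largest share being in heterozygous valves with short telomeres. Pot1b took 12.6%, 9.63%, 20.7% and 3.83%, the widest change of any member at 5.40-fold. This rank depends on Acd: with Acd left out of the sum, the widest change was that of Pot1a, at 4.805-fold. Pot1a went from 6.76% and 6.24% to 1.64% and 3.63%, and Terf1 from 7.84% to between 12.96% and 16.5%. Terf2 was the steadiest, between 12.1% and 17.5%. The most abundant member exceeded the least abundant by 4.38-fold and 3.83-fold with long telomeres, and by 12.6-fold and 13.2-fold with short ones.

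**Figure D4:**
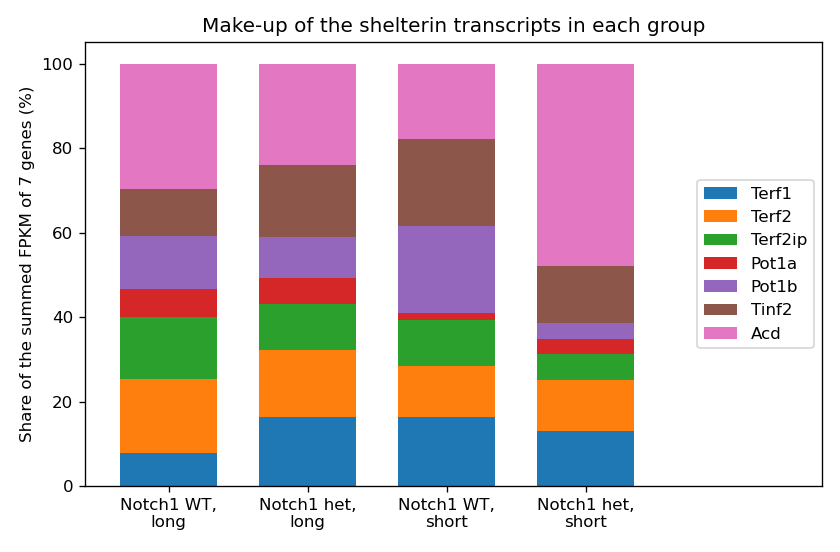
Stacked bars give the percent of the summed FPKM of the 7 shelterin genes taken by each gene in the 4 groups. Acd takes 48.0% in heterozygous valves with short telomeres, and Pot1b narrows there to 3.83%.

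Set against genes of like level, 1 member had an unusual spread over the groups. Between its highest and lowest group Pot1b differed by 2.48 on the log2(FPKM + 1) scale, more than 92.4% of 3477 genes within 0.5 of its mean level. Terf1 (1.504) exceeded 73.3% of its like-level genes, and the other members lay between 46.6% for Terf2 and 62.3% for Terf2ip. The median spread was 1.36 for the members and 1.17 for all genes. A gene as variable as most members is thus common in this table.

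**Figure D5:**
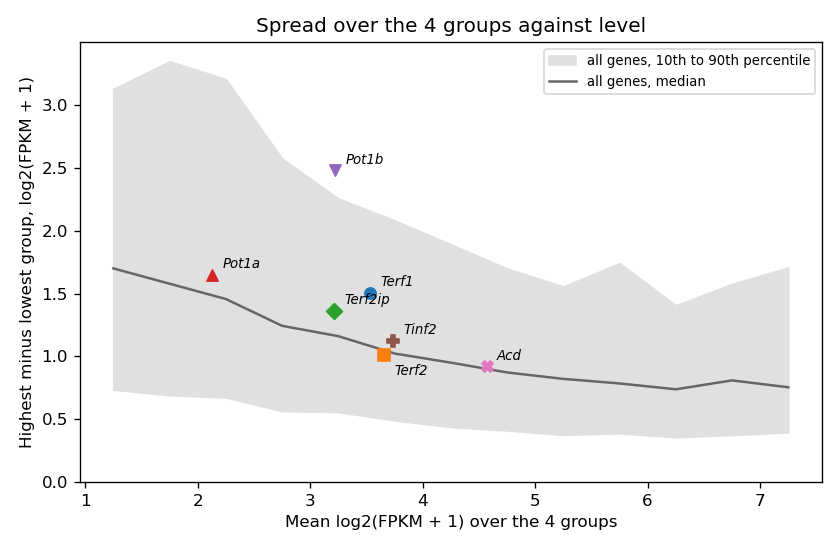
Each point is a shelterin gene, with its mean log2(FPKM + 1) over the groups on the horizontal axis and the difference between its highest and lowest group on the vertical axis. The grey band is the 10th to 90th percentile of all genes at that level and the line their median; Pot1b, at 2.48, is the member above the band.

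Among the 21 pairs of members, Terf1 and Tinf2, whose products bind each other, had the most similar profiles. After centring on each gene's mean, they differed by 0.17 (root mean square, log2 scale, over 4 groups), as close as 20 of 10024 genes (0.20%) are to Terf1. Tinf2 was not left out of that count. The pair was picked as the closest of the 21, so this percent is low by selection and tests nothing. Terf2 and Terf2ip, also binding partners, came next at 0.28. Acd and Pot1b, partners too, were the farthest apart at 1.21, and the paralogs Pot1a and Pot1b the next farthest at 1.12. The mean profile of the 7 members was shared by many genes: 651 of 8859 lay within 0.25 of it, the nearest being Kdm5d (6.86, 10.8, 7.91 and 4.65 FPKM), Med14 (23.4, 34.2, 26.5 and 17.5 FPKM) and Traf6 (10.5, 16.7, 11.8 and 7.41 FPKM). Few genes resembled Pot1b, with 11 of 8864 within 0.25. The nearest were Dgkz (15.7, 20.2, 36.6 and 6.13 FPKM), Taf8 (6.11, 6.52, 9.71 and 1.12 FPKM) and Trmt2a (7.37, 11.5, 16.6 and 2.46 FPKM). With 4 points per profile such likeness is a description only.

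Other telomere genes were read from 4 lists of 45 genes, of which 44 were in the table. With long telomeres 33 of 44 were higher in heterozygous valves and 11 lower, with 8 and 1 past 2-fold (9.81% and 9.47% of all genes were) and a median of 0.39. In heterozygous valves short telomeres went with lower values in 33 of 44, with 9 past 2-fold lower, 0 past 2-fold higher (12.7% and 8.43% of all genes) and a median of -0.46. Short telomeres alone against Notch1 loss alone had 30 of 44 lower, with 11 past 2-fold lower and 2 higher (16.0% and 14.2% of all genes) and a median of -0.31. The remaining comparisons were mixed. For Notch1 genotype with short telomeres 24 of 44 were higher, with 5 past 2-fold higher and 8 lower (12.5% and 12.9% of all genes). For short telomeres in wild type valves 25 were higher, with 5 past 2-fold higher and 8 lower (14.1% and 16.4%). For both changes against neither 17 were higher, with 4 past 2-fold higher and 2 lower (11.2% and 14.3%). The authors' deposited table called 0 of the 44 in each of its 5 comparisons, and between 0.415% and 0.686% of all genes.

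The CST complex, which fills in the strand opposite the overhang, had all 3 genes within 2-fold between Notch1 genotypes with long telomeres. Ctc1 stood at 3.56, 4.98, 3.43 and 1.11 FPKM, lowest where Pot1b was lowest. Stn1 stood at 10.7, 11.7, 3.84 and 7.30 FPKM and Ten1 at 2.80, 4.69, 1.51 and 2.26 FPKM, both lower in the short-telomere groups, as Pot1a was. Of 8 telomerase genes, the catalytic subunit Tert was near 0 in all groups but 1, at 0.0360, 1.66, 0.0179 and 0.211 FPKM. Nop10, which binds the telomerase RNA, stood at 23.3, 53.3, 63.3 and 52.3 FPKM. Wrap53, which carries telomerase to Cajal bodies, stood at 0.823, 2.43, 1.91 and 0.340 FPKM.

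Among 20 enzymes and factors that act with shelterin, 3 were past 2-fold higher and 1 lower in heterozygous valves with long telomeres, beside 9.81% and 9.47% of all genes. Xrcc6, which encodes the Ku70 end-binding protein, stood at 10.01, 37.1, 20.6 and 8.03 FPKM, high in the same groups as Terf1 and Tinf2. The flap nuclease gene Fen1 stood at 0.695, 3.49, 0 and 0.713 FPKM and the helicase gene Blm at 1.19, 4.29, 1.58 and 0.719 FPKM. Mre11a, the nuclease of the MRN complex, was picked out after its values were seen: at 3.54, 7.25, 19.5 and 2.24 FPKM it was highest and lowest in the groups where Pot1b was. Of the 13 checkpoint genes found, 3 were past 2-fold higher in heterozygous valves with long telomeres, beside the same 9.81%, and 0 lower. Chek1, the kinase downstream of ATR, stood at 0.743, 4.45, 1.24 and 0.542 FPKM. Chek2, the kinase downstream of ATM, stood at 1.85, 6.22, 0.640 and 8.16 FPKM, and Rad1, part of the checkpoint clamp, at 3.03, 7.66, 5.89 and 12.2 FPKM. Chek1 was highest in the group with the highest cell cycle sum, and Chek2 and Rad1 in heterozygous valves with short telomeres.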

How the data were processed

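Aortic valve RNA of 15 mice was amplified from small amounts with a kit that keeps no strand and sequenced as paired reads of 100 bases, per the labels' protocols. The submitters' processing notes list FastQC, TopHat, SAMtools, Picard and the mm9 build but give them no role. Per the file headers, the authors' values are FPKM, 1 per gene for each group, with columns of 0 or 1 for 5 pairs of groups, read as their calls. The test behind the calls is not given in the sources used here. Columns 8 and 9 share a header and were assigned to the pair of groups in which every called gene had a high ratio. Library depth is unknown.

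Log2 folds used a pseudocount of 1 FPKM and were centred on the median of genes with a mean of at least 1 FPKM. No test, error or replicate check was possible, and percentiles among genes are descriptions. The 7 members and all lists were chosen with earlier results of these data known. Named genes are the members, Terc, Notch1, up to 3 genes per telomere list with the largest absolute log2 fold between Notch1 genotypes with long telomeres, and the 3 nearest profiles among genes with a mean of at least 5 FPKM; Gmpr2, Carmil2, Mre11a and Ccnb2 were added after their values were seen. Alternatives were other scalings, backgrounds and a pseudocount of 0.1. Each same-sum scaling multiplied all genes of a group by the same factor and was not centred on the median gene. The sum without blood and cell cycle genes leaves out the T cell and thymocyte, cell cycle, platelet, neutrophil and erythroid lists. It keeps the mitochondrial genes. The code was tested on simulated data. Computation used pandas 2.3.3 and numpy 2.4.6 under Python 3.11.15, with plots from matplotlib 3.10.9.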

Additional observations from a re-analysis of the deposited data

How the results depend on the processing

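Of the 42 member folds, 15 were past 2-fold, and none of these 15 changed sign under any of the 6 alternatives. With a pseudocount of 0.1 or with all genes as the background, all 15 stayed past 2-fold. With a background of genes of at least 10 FPKM 14 did, as deposited and with the same sum of genes outside the mitochondrion 12, and with the same sum without blood and cell cycle genes 11; those that dropped under 2-fold were folds of Pot1b, Tinf2 and Terf1. In the same order 1, 0, 1, 3, 4 and 8 other folds came past 2-fold, all of them lower. Most were folds for short telomeres in heterozygous valves, where the median of the members went from -0.77 to -1.47 at the last setting. For both changes against neither it went from -0.43 to -1.04. The deposited and same-sum scales were not centred on the median gene, so these counts and medians also hold any shift of all genes. Sign changes came in 0, 0, 4, 5, 5 and 7 of the 42 folds in that order, all in folds of at most 0.51. In Notch1 wild type valves 5 members were higher with short telomeres, but 3 with the background of at least 10 FPKM, 3 as deposited and 3 with either same sum. For short telomeres alone against Notch1 loss alone it was 4, but 2, 1 and 1 in that order. In heterozygous valves 1 member was higher with short telomeres, and 0 with the same sum without blood and cell cycle genes. The widest change in share was 5.40-fold, for Pot1b. With Acd left out of the sum, the widest was 4.805-fold and was that of Pot1a, no longer that of Pot1b. No paired analysis was possible because the table holds 1 value per group, and for the same reason no replicate could be left out.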
